A study of Homo sapiens with 6 samples.

Results

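Histone H3 methylated on lysine 9 (H3K9) marks heterochromatin, the compact and largely silent part of the genome. Methyltransferases write the mark, and heterochromatin protein 1 (HP1) binds it and helps to spread it. The transcription factor ATF7, whose family recognizes the DNA element known as CRE, has been linked to H3K9 methylation through EHMT2 and through its partner ATF7IP. The 10 genes described here are 5 H3K9 methyltransferases (*SUV39H1*, *SUV39H2*, *EHMT1*, *EHMT2* and *SETDB1*), the SETDB1 cofactors *ATF7IP* and *TRIM28*, and the HP1 genes *CBX1*, *CBX3* and *CBX5*. They were taken by symbol for these roles from the 12499 genes with counts, with no rule on measured values, although earlier results of these data were known.

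The cells were HaCaT, an immortalized keratinocyte line of human origin. Each culture carried a lentivirus for 48 hours, either one with the human *ATF7* coding sequence in a pLVX-IRES-Puro vector (LV-*ATF7*) or the control virus (LV-NC), and all cultures then spent 24 hours in high glucose. There were 3 poly(A) RNA libraries per group, so both groups shared the cell line, a lentivirus and high glucose, and no library without virus or with normal glucose was compared. No source states that the replicates were separate cultures, so the p-values measure the spread between these libraries, which may be technical.

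Libraries held 16686472 to 20562768 counts. The labels were first checked with *ATF7* (ENSG00000170653), whose level was 46.4 to 52.2 CPM (counts scaled to a common library total) in LV-NC and 21.9 to 28.0 CPM in LV-*ATF7*. It was therefore lower where overexpression was labeled, by a log2 fold change of -0.98 (standard error 0.12, edgeR adjusted p = 1.89e-04). Of its coding bases, 94.3% also lie in exons of other genes, and how such reads were counted is not given in the sources used here. Groups are accordingly called "the libraries labeled LV-*ATF7*" and "the libraries labeled LV-NC", and every direction below rests on those labels. LV-NC replicate 1 stood apart: over all genes tested, its median distance from the mean of the other libraries of its group was 0.31 on the log2 scale, against 0.077 to 0.19 for the other 5 libraries. Results are therefore given with and without it.

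CPM values below were normalized by the trimmed mean of M-values (TMM), means are ± SD with n = 3, and fold changes are of the libraries labeled LV-*ATF7* over those labeled LV-NC. A gene was called when edgeR's quasi-likelihood test gave an adjusted p under 0.05 after Benjamini-Hochberg adjustment over 12462 genes. The RNA came from bulk cultures, in which fewer cells of a type and less RNA per cell cannot be told apart.

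All 10 genes were tested and 6 were called. *EHMT1*, *EHMT2*, *SETDB1* and *CBX5* were higher and *CBX1* and *ATF7IP* were lower in the libraries labeled LV-*ATF7*, whereas *SUV39H1*, *SUV39H2*, *CBX3* and *TRIM28* did not pass. Over all genes tested, 67.6% were called, 34.7% higher and 32.9% lower, so 6 of 10 is a share near this background. The groups did not overlap in CPM for the same 6 genes, against 72.7% of all genes. The median size of the log2 fold change was 0.52 over the 10 genes and 0.67 over all genes tested. A fold change of at least 1.5 was also reached by 3 of them (*EHMT2*, *CBX1* and *CBX5*), against 52.9% of all genes. Without LV-NC replicate 1, 9 of the 10 were called, 5 higher and 4 lower, against a background of 80.1%.

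**Figure D1:**
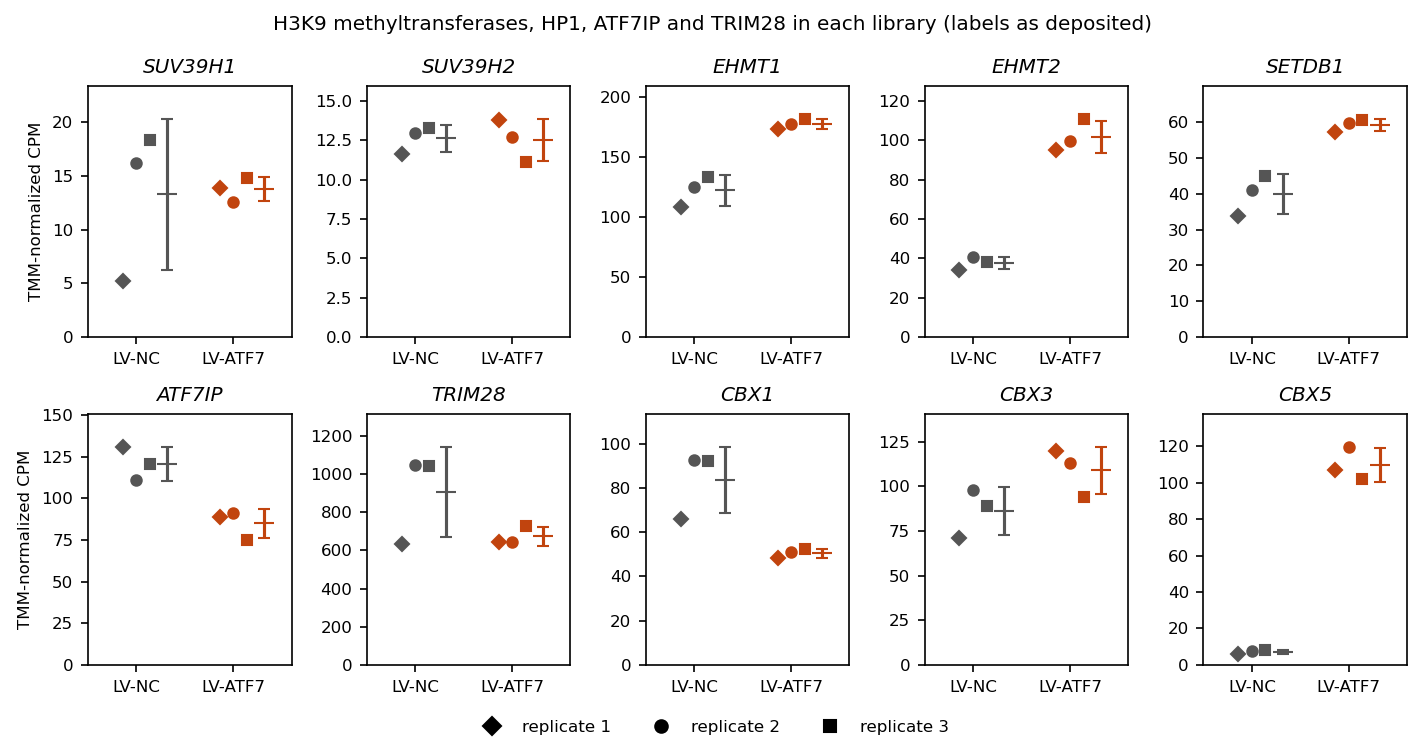
TMM-normalized CPM (vertical axis from 0) of each of the 10 genes, in 3 LV-NC and 3 LV-ATF7 libraries as labeled; symbols mark the replicate number and bars the mean ± SD. *CBX5* lies at 5.78 to 8.16 CPM in LV-NC and 102.2 to 119.9 CPM in LV-ATF7, and *SUV39H1* and *TRIM28* are low in LV-NC replicate 1.

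*EHMT2* (G9a) and *EHMT1* (GLP) encode partner enzymes that form a heterodimer and place mono- and dimethylation on H3K9, mainly in euchromatin. *EHMT2* (ENSG00000204371, chromosome 6, 31879759 to 31897687, minus strand) had 34.3, 40.6 and 38.3 CPM in LV-NC and 95.1, 99.7 and 111.0 CPM in LV-*ATF7*. Every value of the latter group was above every value of the former. The means were 37.7 ± 3.17 and 102.0 ± 8.20 CPM, a 2.70-fold difference (log2 fold change 1.43, standard error 0.11, edgeR adjusted p = 1.66e-05). Without LV-NC replicate 1 the log2 fold change was 1.35. Of its exon bases, 8.12% are shared with the antisense gene *EHMT2-AS1*, and since strandedness is not given, reads there cannot be told apart.

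*EHMT1* (ENSG00000181090, chromosome 9, 137618963 to 137870016, plus strand) had 108.5, 124.9 and 133.4 CPM in LV-NC and 173.7, 177.5 and 181.9 CPM in LV-*ATF7*. The groups did not overlap, and the rise was smaller than that of its partner, with a log2 fold change of 0.54 (standard error 0.0995, edgeR adjusted p = 0.00166) and of 0.44 without LV-NC replicate 1. The difference between the partners was tested on their ratio within each library, which does not depend on scaling. The log2 ratio of *EHMT1* to *EHMT2* counts was 1.69 ± 0.093 in LV-NC and 0.80 ± 0.082 in LV-*ATF7*, a difference of -0.89. The exact two-sided permutation test gave p = 0.1, the smallest that 3 against 3 libraries allow, and 0.12 after adjustment over the 6 ratios tested.

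SETDB1 trimethylates H3K9 at retrotransposons and other silenced loci. *SETDB1* (ENSG00000143379, chromosome 1, 150926263 to 150964744, plus strand) had 33.8, 40.9 and 45.0 CPM in LV-NC and 57.3, 59.6 and 60.6 CPM in LV-*ATF7*. The lowest library labeled LV-*ATF7* was above the highest labeled LV-NC, with means of 39.9 ± 5.64 and 59.2 ± 1.71 CPM. The log2 fold change was 0.57 (standard error 0.12, edgeR adjusted p = 0.00334), and 0.44 without LV-NC replicate 1. Of its exon bases, 13.4% are shared with *CERS2* on the opposite strand.

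ATF7IP binds SETDB1 and keeps it stable in the nucleus. Its gene *ATF7IP* (ENSG00000171681, chromosome 12, 14365632 to 14502935, plus strand) had 131.2, 110.9 and 120.7 CPM in LV-NC and 88.9, 91.4 and 75.1 CPM in LV-*ATF7*, again without overlap. It moved in the opposite direction to *SETDB1*, with a log2 fold change of -0.51 (standard error 0.11, edgeR adjusted p = 0.00424) and of -0.46 without LV-NC replicate 1. None of its exon bases are shared with another gene. The ratio of *ATF7IP* to *SETDB1* counts was 3.88, 2.71 and 2.68 in LV-NC and 1.55, 1.53 and 1.24 in LV-*ATF7*. On the log2 scale it was 1.61 ± 0.30 and 0.52 ± 0.18, a difference of -1.09 (exact permutation p = 0.1, adjusted 0.12).

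TRIM28 (KAP1) is the scaffold through which KRAB zinc finger proteins bring SETDB1 and HP1 to their targets. *TRIM28* (ENSG00000130726, chromosome 19, 58544091 to 58550722, plus strand) had 634.2, 1048 and 1042 CPM in LV-NC and 646.2, 645.1 and 729.2 CPM in LV-*ATF7*. LV-NC replicate 1 lay below all 3 libraries labeled LV-*ATF7*, while the other LV-NC libraries lay above them. The log2 fold change was -0.43 (standard error 0.19, edgeR adjusted p = 0.0772), which did not pass, and it was -0.65 (edgeR adjusted p = 8.47e-10) without that library. The log2 ratio of *TRIM28* to *SETDB1* counts was 4.48 ± 0.23 in LV-NC and 3.51 ± 0.077 in LV-*ATF7*, a difference of -0.97 with no overlap (exact permutation p = 0.1, adjusted 0.12).

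SUV39H1 and SUV39H2 place the trimethylation of pericentromeric heterochromatin. *SUV39H1* (ENSG00000101945, chromosome X, 48695554 to 48709012, plus strand) had 5.25, 16.3 and 18.4 CPM in LV-NC and 13.9, 12.6 and 14.8 CPM in LV-*ATF7*. The low value of LV-NC replicate 1 rests on 98 counts, against 310 and 317 in the other LV-NC libraries. The 3 libraries labeled LV-*ATF7* lay between it and the other LV-NC libraries. The means were 13.3 ± 7.04 and 13.8 ± 1.12 CPM, with a log2 fold change of 0.053 (standard error 0.39, edgeR adjusted p = 0.912). Without LV-NC replicate 1 the direction turned, to -0.35 (edgeR adjusted p = 0.0110). Of the coding bases of *SUV39H1*, 53.2% are shared with *AC231533.1* on the opposite strand, and reads there cannot be told apart.

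*SUV39H2* (ENSG00000152455, chromosome 10, 14878820 to 14904315, plus strand) had 11.6, 13.0 and 13.3 CPM in LV-NC and 13.8, 12.7 and 11.1 CPM in LV-*ATF7*. The groups overlapped, with a log2 fold change of -0.011 (standard error 0.14, edgeR adjusted p = 0.953), and of -0.086 (edgeR adjusted p = 0.553) without LV-NC replicate 1. It was the only one of the 10 not called without that library. The log2 ratio of *SUV39H2* to *SUV39H1* was 0.12 ± 0.89 in LV-NC and -0.14 ± 0.24 in LV-*ATF7* (difference -0.26, exact permutation p = 0.9), and without LV-NC replicate 1 the difference was 0.26 (exact permutation p = 0.4).

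**Figure D2:**
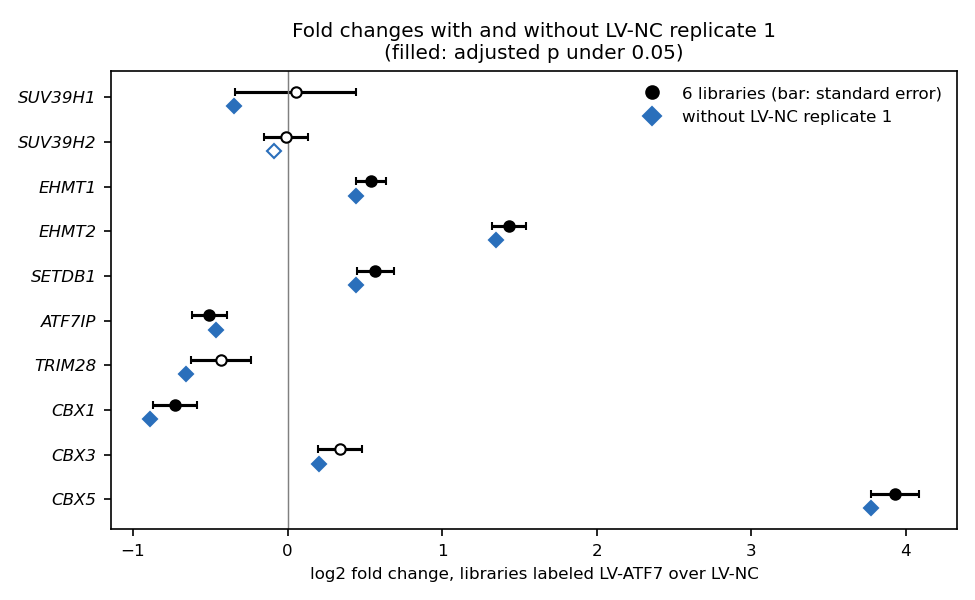
Log2 fold change (horizontal axis, libraries labeled LV-ATF7 over LV-NC) of each gene over 6 libraries (circles, bars are standard errors) and without LV-NC replicate 1 (diamonds); filled symbols have an edgeR adjusted p under 0.05. *CBX5* stands at 3.93, and *SUV39H1* moves from 0.053 to -0.35 without LV-NC replicate 1.

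The largest change among the 10 was in *CBX5*, which encodes HP1α, an HP1 protein concentrated in constitutive heterochromatin. *CBX5* (ENSG00000094916, chromosome 12, 54230940 to 54280133, minus strand) had 5.78, 7.65 and 8.16 CPM in LV-NC, from 108, 146 and 141 counts. It had 107.1, 119.9 and 102.2 CPM in LV-*ATF7*, from 1918, 2353 and 1849 counts. The means of 7.20 ± 1.25 and 109.8 ± 9.15 CPM differed 15.2-fold (log2 fold change 3.93, standard error 0.15, edgeR adjusted p = 1.29e-06). Its size ranked 276 of the 12462 genes tested, and without LV-NC replicate 1 the log2 fold change was 3.78.

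*CBX1* encodes HP1β, which also binds pericentromeric heterochromatin. *CBX1* (ENSG00000108468, chromosome 17, 48070052 to 48101521, minus strand) had 66.1, 92.6 and 91.9 CPM in LV-NC and 48.2, 50.9 and 52.2 CPM in LV-*ATF7*. All 3 libraries labeled LV-*ATF7* lay below LV-NC, with a log2 fold change of -0.73 (standard error 0.14, edgeR adjusted p = 0.00217) and of -0.89 without LV-NC replicate 1. Its mean fell from 83.6 ± 15.1 to 50.4 ± 2.06 CPM.

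*CBX3* encodes HP1γ, which is also found along transcribed genes. *CBX3* (ENSG00000122565, chromosome 7, 26201162 to 26213356, plus strand) had 71.3, 97.8 and 89.0 CPM in LV-NC and 119.9, 112.8 and 94.2 CPM in LV-*ATF7*. The highest LV-NC library was above the lowest labeled LV-*ATF7*, and the log2 fold change of 0.34 (standard error 0.14, edgeR adjusted p = 0.0652) did not pass. Without LV-NC replicate 1 it was 0.20 (edgeR adjusted p = 0.0496). The annotation names 9 pseudogenes of *CBX3*, 5 of *CBX1* and 1 of *CBX5*, with which near-identical reads could be shared, so the values of these genes are uncertain to that extent. *CBX3* also shares 7.93% of its exon bases with *HNRNPA2B1* on the opposite strand, at means of 593.0 CPM in LV-NC and 531.9 CPM in LV-*ATF7*. Reads there cannot be told apart, which also limits the ratios to *CBX3*.

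Relative to *CBX3*, *CBX5* counts were 0.0811, 0.0782 and 0.0917 in LV-NC and 0.893, 1.06 and 1.09 in LV-*ATF7*, a log2 difference of 3.60. The log2 ratio of *CBX1* to *CBX3* moved the other way, from -0.047 ± 0.082 to -1.10 ± 0.23, a difference of -1.06. Neither ratio overlapped between groups (exact permutation p = 0.1 for each, adjusted 0.12). Levels were compared between genes only per kilobase of annotated exon. On that scale *CBX1* made up 57.6% to 60.2% of the summed HP1 level in LV-NC and 32.1% to 38.4% in LV-*ATF7*. *CBX5* made up 0.986% to 1.10% in LV-NC and 14.7% to 16.4% in LV-*ATF7*, so that the order of the HP1 genes by level became *CBX3*, *CBX1*, *CBX5* in place of *CBX1*, *CBX3*, *CBX5*. These shares depend on the gene lengths used. Lengths behind the deposited FPKM are implied by counts and FPKM, and for *TRIM28* and *EHMT2* exceed the whole gene, as given below. With the lengths behind the deposited FPKM, which are 1.22 times the exon length for *CBX5*, 2.30 times for *CBX1* and 2.21 times for *CBX3*, *CBX5* made up 1.81% to 2.02% in LV-NC and 24.0% to 26.5% in LV-*ATF7*. The order of the HP1 genes was the same with either length. The summed level per annotated exon length overlapped between groups, with 37.2 to 51.6 CPM per kilobase in LV-NC and 44.0 to 48.8 in LV-*ATF7*.

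**Figure D3:**
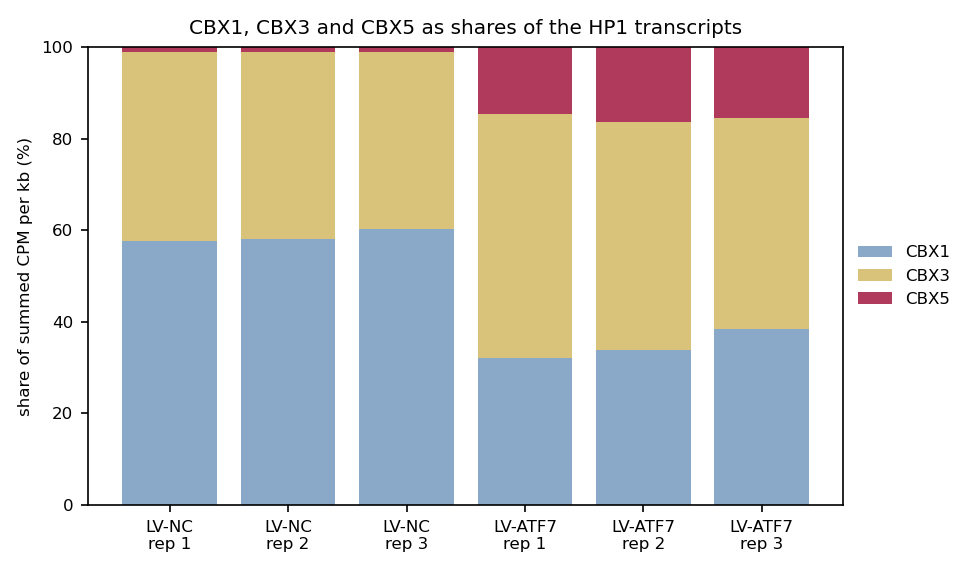
Share (%) of *CBX1*, *CBX3* and *CBX5* in their summed CPM per kilobase of annotated exon, one bar for each of the 6 libraries. *CBX5* holds at most 1.10% in the libraries labeled LV-NC and at least 14.7% in those labeled LV-ATF7, while *CBX1* holds 57.6% to 60.2% and 32.1% to 38.4%.

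By mean level per kilobase of annotated exon in LV-NC, *TRIM28* was highest at 225.1, followed by *CBX1* at 27.1, *CBX3* at 18.5 and *ATF7IP* at 9.17. *SETDB1*, *EHMT1* and *EHMT2* followed at 5.63, 5.50 and 5.18, with overlapping libraries, then *SUV39H1* at 3.94 and *SUV39H2* at 3.54, and *CBX5* was lowest at 0.479. The libraries of *SUV39H1* overlapped those of *SUV39H2*, *EHMT1*, *EHMT2* and *SETDB1*, and its mean was 5.14 without LV-NC replicate 1, near the 5.41 of *EHMT2* in the same libraries. In the libraries labeled LV-*ATF7*, *TRIM28* was at 167.0, *CBX3* at 23.5, *CBX1* at 16.3 and *EHMT2* at 14.0 CPM per kilobase. *SETDB1* (8.34), *EHMT1* (8.0), *CBX5* (7.30) and *ATF7IP* (6.45) came next, each overlapping its neighbor in this order, and *SUV39H1* (4.09) and *SUV39H2* (3.52) were lowest and overlapped. *EHMT2* and *CBX5* thus stood higher in the order, and they did so with the lengths behind the deposited FPKM as well. Other places depend on the length. The FPKM lengths are 3.83 times the exon length for *ATF7IP*, 5.25 times for *SETDB1* and 2.15 times for *SUV39H1*. With them, in LV-*ATF7*, *SUV39H1* (1.90) lay above *ATF7IP* (1.68), and *ATF7IP* above *SETDB1* (1.59), each overlapping its neighbor in this order. *CBX5* (5.99) lay above *EHMT2* (3.41) without overlap. In LV-NC, *SUV39H1* (1.83) then lay above *EHMT2* (1.26) and *SETDB1* (1.07), with overlapping libraries. *SUV39H1* thus stood lower in the order with the annotated exon lengths than with those behind the FPKM. The latter are not gene lengths alone, as for *TRIM28* (3.786 times the exon length) and *EHMT2* (4.105 times) they exceed the whole gene. Places that differ between the scales are therefore uncertain.

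Promoter windows from RefSeq (GRCh38.p14), from 250 bases before to 50 bases after each start, were found for 9 of the 10 genes, in 18 windows, and *TRIM28* was not matched. The full CRE, TGACGTCA, was searched on both strands as the site that ATF/CREB factors bind. Among the 9 genes it was found in *SUV39H2* alone. It is held by 2.25% of the 27305 genes with a window, and by 1.85% of the 35116 windows of all genes. Stretches outside every annotated exon are shown for 3 genes. *SUV39H2*, chr10:14878687-14878819, plus strand, is shown for its CRE (capitals). *CBX5*, chr12:54280134-54280192, minus strand, is shown as the gene with the largest change. *SUV39H1*, chrX:48696484-48696594, plus strand, is shown as a gene whose direction differed between fits. Its stretch lies inside the gene coordinates given above, in the window of a later start than the first. Each stretch is written 5′ to 3′ on the strand of its gene.
SUV39H2: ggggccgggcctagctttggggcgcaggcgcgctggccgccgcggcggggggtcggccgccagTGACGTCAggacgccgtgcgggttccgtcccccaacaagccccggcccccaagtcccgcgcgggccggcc
CBX5: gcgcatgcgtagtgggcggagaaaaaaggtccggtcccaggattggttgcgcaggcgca
SUV39H1: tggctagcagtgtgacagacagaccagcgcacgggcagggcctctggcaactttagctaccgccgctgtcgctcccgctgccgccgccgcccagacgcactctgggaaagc

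The shorter CRE core TGACG, which overlaps the full CRE, was in windows of *SUV39H2* and *SETDB1*, and in windows of 28.4% of all genes. The cell cycle homology letters TTTGAA were in *SUV39H2* and *ATF7IP* (18.2% of all genes) and TTCGAA in none of the 9 genes (1.82%). Of the E2F letters, TTGGCGC was in *CBX3* (3.66% of all genes) and TTCCCGC in none of the 9 (7.82%). *SUV39H2*, which holds the full CRE, showed no difference past the threshold, and the called *EHMT1*, *EHMT2*, *CBX1* and *CBX5* held none of the 6 motifs. These matches describe letters in the windows only.

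The bases shown for *CBX5* are those between its start and that of *HNRNPA1*, an RNA-binding protein gene transcribed the other way, and the starts lie 60 bases apart. *HNRNPA1* was looked at after the *CBX5* values were seen. It had 647.4, 865.7 and 840.4 CPM in LV-NC and 1064, 1050 and 1006 CPM in LV-*ATF7*, with a log2 fold change of 0.41 (standard error 0.13, edgeR adjusted p = 0.0229) and of 0.27 without LV-NC replicate 1. It lost its call in 4 of 13 alternatives, with library size only (0.25) and with any 1 library labeled LV-*ATF7* left out. The change of *CBX5* was thus the larger of the pair.

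The genes that were low in LV-NC replicate 1 were set beside proliferation markers, whose sum was also low there. Against the mean of the other LV-NC libraries, replicate 1 was lower by a log2 of -1.70 for *SUV39H1*, -0.72 for *TRIM28* and -0.48 for *CBX1*. The values were -0.44 for *CBX5*, -0.39 for *CBX3* and -0.34 for *SETDB1*. They were -0.25 for *EHMT1*, -0.20 for *EHMT2* and -0.17 for *SUV39H2*, and replicate 1 was higher by 0.18 for *ATF7IP*. *MKI67*, which encodes the proliferation antigen Ki-67, had 133.8, 721.4 and 811.6 CPM in LV-NC and 183.3, 191.8 and 162.4 CPM in LV-*ATF7*. The 22 proliferation markers summed to 1212, 4116 and 4119 CPM in LV-NC and to 2016 to 2074 CPM in LV-*ATF7*. For *MKI67* and the sum, as for *SUV39H1* and *TRIM28*, LV-NC replicate 1 was below and the other LV-NC libraries above all libraries labeled LV-*ATF7*. Not every marker did so: *MCM3* was lower and *PCNA* higher in every LV-NC library than in any labeled LV-*ATF7*. *CBX5* did not do so either, as it was lower in every LV-NC library. The part of proliferation in the results for *SUV39H1* and *TRIM28* was not tested.

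**Figure D4:**
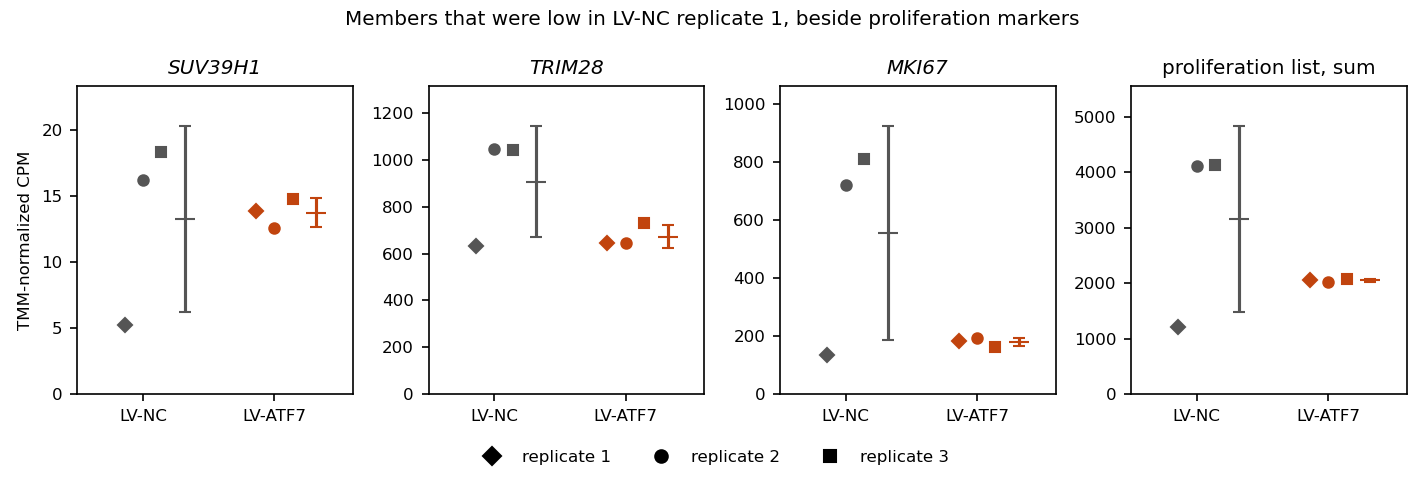
TMM-normalized CPM (vertical axis from 0) of *SUV39H1*, *TRIM28*, *MKI67* and the sum of 22 proliferation markers in each library, with mean ± SD. LV-NC replicate 1 is the lowest library in all 4 panels, with 5.25 CPM of *SUV39H1* and 133.8 CPM of *MKI67*.

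Of the 22 proliferation markers, 12 were called (54.55%, against 67.6% of all genes), 4 higher and 8 lower (median log2 fold change -1.09). Without LV-NC replicate 1, 20 were called (90.9%, against 80.1%). Named by size, *BUB1* (-2.00) and *PCNA* (-1.52) fell while the replication helicase genes *MCM3* (1.92) and *MCM5* (1.25) rose, on the log2 scale. *MKI67* was called at -1.63 (edgeR adjusted p = 0.0282) and at -2.12 without LV-NC replicate 1. Of 14 keratinocyte markers, 13 were called (92.9%, against 67.6% of all genes), 11 higher and 2 lower. Their sum was 2685 to 3659 CPM in LV-NC and 9489 to 10250 CPM in LV-*ATF7*. The basal keratin *KRT5* had means of 266.4 and 3354 CPM, *TP63* of 15.5 and 231.5 CPM, *KRT15* of 64.0 and 690.9 CPM and *PKP1* of 95.7 and 427.8 CPM. The 2 called lower, named after their values were seen, were the laminin gene *LAMA3* (228.6 and 101.3 CPM, log2 fold change -1.17) and *KRT14*, the keratin that pairs with *KRT5*. *KRT14* had 0.375, 12.5 and 11.3 CPM in LV-NC and 1.38 to 1.83 CPM in LV-*ATF7*, so its groups overlapped, with a log2 fold change of -2.37 (edgeR adjusted p = 0.0461) that was -2.96 without LV-NC replicate 1. For other cell types few markers had a row in the table: 3 of 8 for fibroblasts (2 of them tested, *COL1A1* and *DCN*, summed 33.1 to 42.7 CPM in LV-NC and 17.3 to 21.7 in LV-*ATF7*), 2 of 5 for endothelium (1.12 to 5.50 and 84.6 to 89.9), 1 of 6 for leukocytes (*CD14*, 1.51 to 1.73 and 7.09 to 9.57) and 1 of 6 for melanocytes (*PMEL*, 1.87 to 2.20 and 3.42 to 6.03). *COL1A1* had means of 36.7 and 16.8 CPM, *DCN* went the other way with 0.553 and 2.67 CPM, and *THY1* had at most 37 counts in LV-NC and 1 in LV-*ATF7*. The endothelial sum was mostly *CDH5*, with means of 3.08 and 84.4 CPM, while *PECAM1*, *KDR* and *TEK* had no row, nor had the leukocyte marker *PTPRC*. The part of these differences in the results for the 10 genes was not tested.

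Genes that work with the 10 were counted by role, and each count is to be read against the 67.6% called over all genes, or 80.1% without LV-NC replicate 1. Of 12 other H3K9 writers and cofactors with a row, 8 were called (66.7%), 6 higher and 2 lower (median log2 fold change 0.28, against 0.0002 over all genes), and 9 without LV-NC replicate 1. The largest changes were in the SUMO gene *SUMO3* (11.4 to 76.7 CPM, log2 fold change 2.76) and in *MECOM* (1.04), and the methyltransferase relatives *SETDB2* (-0.997) and *PRDM2* (-0.85) fell. Of 5 HUSH and MORC genes, whose products work with SETDB1 in silencing, 2 were called (40.0%), both higher: *MORC2* (25.5 to 54.7 CPM, 1.10) and *TASOR* (0.63). The other 3, *MPHOSPH8* (-0.026), *PPHLN1* (-0.0785) and *TASOR2* (-0.15), did not pass, the list's median was -0.026, and 3 were called without LV-NC replicate 1.

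Of 22 HP1 partners and heterochromatin assembly genes, 11 were called, 7 higher and 4 lower (median -0.006), and 17 (77.3%) without LV-NC replicate 1. *UHRF1*, which reads H3K9 methylation and guides maintenance of DNA methylation, had a log2 fold change of 1.63 and *POGZ*, an HP1-binding protein gene, of 0.89. *MBD1*, a methyl-CpG binding protein gene (212.5 to 94.1 CPM, -1.18), and the H4K20 methyltransferase gene *KMT5C* (-0.89) fell. Of 3 DNA methyltransferases, *DNMT3A* was called, with 23.1, 8.39 and 7.82 CPM in LV-NC and 39.0, 41.0 and 42.0 CPM in LV-*ATF7* (log2 fold change 1.63, edgeR adjusted p = 0.00566, and 2.31 without LV-NC replicate 1), and all 3 were called without LV-NC replicate 1.

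The enzymes that remove the mark were also called in both directions. Of 11 H3K9 demethylases, 9 were called (81.8%), 4 higher and 5 lower (median -0.19), and all 11 without LV-NC replicate 1. *KDM7A* fell from 39.5 to 8.76 CPM (log2 fold change -2.17), while *KDM1A* (LSD1) rose from 147.4 to 362.7 CPM (1.30), *KDM4D* from 1.47 to 3.85 CPM (1.38) and *PHF2* from 68.5 to 134.4 CPM (0.97). The writers *EHMT2* and *SETDB1* and the demethylase *KDM1A* were thus higher in the same libraries, in which 5 other demethylases were lower.

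**Figure D5:**
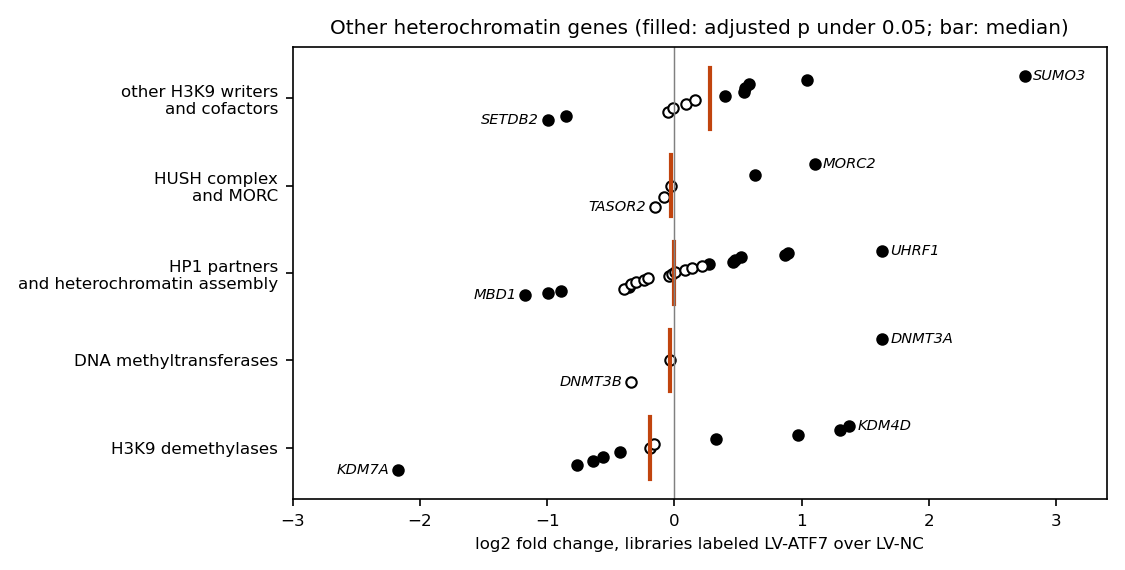
Log2 fold change (horizontal axis, libraries labeled LV-ATF7 over LV-NC) of each gene in 5 lists of related genes; filled points have an edgeR adjusted p under 0.05 and the vertical bar is the list's median. Medians lie between -0.19 and 0.28, and *SUMO3* (2.76) and *KDM7A* (-2.17) lie farthest out.

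The genes whose log2 CPM followed 3 of the 10 most closely over the 6 libraries are given as a description, since the points share libraries and groups. For *SUV39H1* they were *ARNT2* (Pearson r = 0.998), *YBX1* (0.996) and *SLIRP* (0.996). For *SETDB1* they were *HSH2D* (0.999), *APOL1* (0.998) and *VPS35L* (0.998). For *ATF7IP* they were *ACMSD* (0.999), *CEP295* (0.997) and *NOTCH2NLR* (0.997). Some of these genes were low: *ACMSD* reached at most 1.71 CPM, *NOTCH2NLR* 1.66 and *ARNT2* 5.27 CPM in any library. Their correlations therefore rest on few counts.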

How the data were processed

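Unnormalized gene counts were deposited by the authors for 6 poly(A) RNA-seq libraries of HaCaT cells. The build is GRCh38 per the submitters' processing notes, and the aligner, counter, annotation and strandedness are not given in the sources used here. The deposited FPKM values were used only to check gene length: the length behind them was 1.22 to 5.25 times the annotated exon length of the 10 genes, so levels between genes were also computed with it, a choice made after seeing the data. That length is implied by counts and FPKM, exceeds the span of *TRIM28* and of *EHMT2*, and so is not a gene length alone. Columns of the authors' own fold changes and p-values were not used. Every row had at least 51 counts in sum. The symbol was blank in 33 rows, which were kept by identifier.

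Libraries were grouped by label. Counts were scaled by TMM, filtered with filterByExpr (37 genes failed) and tested with edgeR 4.0.16 (glmQLFit, glmQLFTest) in R 4.3.3, with Benjamini-Hochberg adjustment over 12462 genes and a threshold of 0.05. The code was tested on simulated data. Ratios were of counts as deposited, with exact two-sided permutation tests (scipy 1.17.1). These were adjusted over 6 ratios. Depth leaves counting error small. It is relatively largest in low genes, such as *SUV39H1* (98 counts in LV-NC replicate 1) and *CBX5* (108 to 146 counts in LV-NC). Replicates differed by more than sampling noise, so each library counted once.

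The 10 genes, the lists and the tests were chosen with earlier results of these data known. Named were the 10 genes, *ATF7*, *MKI67*, up to 4 called genes per list with no overlap and the largest fold change, and 3 genes of most similar pattern for 3 of the 10. The lists were other H3K9 writers and cofactors, HUSH and MORC, HP1 partners, DNA methyltransferases, H3K9 demethylases, Polycomb, zinc finger genes, proliferation markers and markers of 5 cell types. Positions and exon lengths are from GENCODE release 29, matched by identifier, and promoter sequences from RefSeq (GRCh38.p14). Protein sequences were not used here. Alternatives were upper quartile scaling, scaling by library size only, DESeq2 1.42.0, a minimum of 10 counts per library, no filter, limma 3.58.1 voom with sample weights, the replicate block, leaving out each library, a pseudocount of 0.5 for ratios, and a fold change of at least 1.5.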

Additional observations from a re-analysis of the deposited data

How the results depend on the processing

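The called members *EHMT1*, *EHMT2*, *SETDB1*, *CBX1*, *CBX5* and *ATF7IP* kept their direction and their call in all 13 alternative fits. The other 4 did not all do so, and for these the cause was not tested beyond the samples and scaling changed. *SUV39H1* turned to -0.10 with library size only and to -0.36 with voom weights, and ranged from -0.35 to 0.32 with a library left out. It passed, as lower, with voom weights (limma adjusted p = 0.0127) and without LV-NC replicate 1. *SUV39H2* was 0.0062 with upper quartile scaling and ranged from -0.086 to 0.070. *CBX3* passed with voom weights (0.29), without LV-NC replicate 1 (0.20) and without LV-*ATF7* replicate 3 (0.44), and ranged from 0.20 to 0.44. *TRIM28* passed with DESeq2 (-0.45), library size only (-0.59) and voom weights (-0.66), and ranged from -0.65 to -0.35. The *SUV39H2*/*SUV39H1* log2 ratio difference ranged from -0.55 to 0.26. Library size only shifted the median of all genes by -0.16. Members called numbered 6 to 9 with a library left out and 3 with a fold of at least 1.5. That fold left 4 other H3K9 writers, 6 HP1 partners and 12 Polycomb genes. Voom weights called 18 HP1 partners, 3 DNA methyltransferases, 20 proliferation markers and 2 fibroblast markers. Library size only called 2 DNA methyltransferases, DESeq2 and no filter 2 fibroblast markers each, and the minimum of 10 counts 1 endothelial marker. With a library left out the calls ranged from 8 to 17 HP1 partners, 1 to 3 DNA methyltransferases, 5 to 20 proliferation markers and 1 to 3 fibroblast markers. Without LV-NC replicate 1 the calls were 17, 3, 20 and 3. *MKI67* lost its call with any library other than LV-NC replicate 1 left out (-1.28 to -1.68).

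With the replicate block, 6 members were called, *SUV39H1* was 0.20, *CBX3* 0.35 and *TRIM28* -0.40, and no member's call changed. *MKI67* lost its call (-1.31). Same-numbered libraries deviated together with correlations of 0.058, -0.021 and 0.065, so the numbers were not taken to pair the libraries. With the lengths behind the deposited FPKM, an alternative chosen after seeing the data, the mean share of *CBX1* in the HP1 level was 57.2% in LV-NC and 30.1% in LV-*ATF7*, that of *CBX3* 44.6% in LV-*ATF7*, and that of *CBX5* 1.91% and 25.2%. The pseudocount alternative planned for FPKM was not run, because counts served for every test.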

Other observations

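Polycomb complexes silence genes through H3K27 methylation and H2A ubiquitination, a pathway beside that of H3K9. Of 31 Polycomb genes tested, 21 were called (67.7%, near the 67.6% of all genes), 9 higher and 12 lower. The median log2 fold change was -0.033, against 0.0002 over all genes. Without LV-NC replicate 1, 24 were called (77.4%, against 80.1%). *RYBP* fell from 106.9 to 33.5 CPM (-1.67), while *RBBP4* rose from 24.8 to 72.9 CPM (1.56), *CBX7* from 6.33 to 13.9 CPM (1.13) and *PCGF2* from 18.7 to 37.0 CPM (0.99).

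Zinc finger genes, many of which encode KRAB proteins that bind TRIM28, were taken as symbols of ZNF and a number. Of 361 tested, 222 were called, 87 higher and 135 lower, with a median log2 fold change of -0.19. Of all genes tested, 67.6% were called, against 61.5% of these. Without LV-NC replicate 1, 272 of 363 were called (74.9%, against 80.1% of all genes).

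Beside *CBX5* and *HNRNPA1*, 2 other members had a neighbor on the opposite strand that started within 1000 bases, chosen after the values were seen. *HNRNPA2B1* started 367 bases from the start of *CBX3* and overlapped it, sharing 7.93% of the *CBX3* exon bases. It had a log2 fold change of -0.16 (edgeR adjusted p = 0.554). *HNRNPA2B1* was called without LV-NC replicate 1 (-0.42, edgeR adjusted p = 4.29e-06) and with voom weights (-0.35). *C2*, beside *EHMT2*, had a log2 fold change of -0.60 (edgeR adjusted p = 0.125) and passed with voom weights (-0.72).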
